A study of Homo sapiens with 24 samples.

Results

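Cytosolic ribosomal protein genes encode the proteins of the ribosome outside mitochondria. They were chosen by symbol, as names beginning RPL or RPS followed by a number and at most an A or X, with RPLP0, RPLP1, RPLP2 and RPSA added. This gave 76 of the 38048 genes in the gene table, 31 of the small and 45 of the large subunit, and all 76 were among the 16640 genes that passed the filter on low counts. The pattern leaves out pseudogenes, like-genes such as RPL22L1, and ribosomal proteins under other symbols, such as FAU and RACK1. Of the 29718 genes with a symbol, 1493 were pseudogenes named after a member.

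The ribosome joins these proteins to ribosomal RNA in the nucleolus, and each protein is needed in about equal amounts. Most of their messages begin with a 5′ terminal oligopyrimidine tract, a C followed by a run of C or T at the transcription start, through which the mTOR kinase and the protein LARP1 control their translation and stability. Several members have further roles: RPL5, RPL11 and RPL23 bind MDM2 when ribosome assembly fails, and loss of 1 copy of RPS19 and other members causes Diamond-Blackfan anaemia. Arginines of RPS2, RPS3 and RPS10 are methylated by enzymes of the family that PRT220 and MS023, inhibitors used here, act on.

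All libraries were made from MV4-11, an established acute myeloid leukaemia line with wild-type PRMT5 by its label, as 8 groups of 3 libraries lettered A, B and C. Cells received DMSO as the vehicle control, PRT220, a PRMT5 inhibitor, at 3 nM, GSK-LSD1, an inhibitor of the histone demethylase LSD1, at 10 nM, or PRT220 with GSK-LSD1, for 3 days. MS023, which inhibits the type I enzymes that dimethylate arginine asymmetrically, was given alone or with GSK-LSD1, and 2 further groups received MC4455 or MC4491. For these 4 groups the labels state neither dose nor duration. The study asked how inhibition of PRMT5 and LSD1 acts in combination. The labels do not say whether A, B and C came from separate cultures, and every p-value below rests on the spread among libraries, which may be technical.

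Depth ran from 32.5e6 to 61.1e6 estimated counts per library. The 7 myeloid markers examined, FLT3 and SPI1 among them, summed to between 1122 and 1340 CPM in every library. In this paragraph CPM means counts relative to the library total, without TMM scaling. HBB and CD3E, which define red cells and T cells, did not exceed 0.203 and 0.0544 CPM. In 8 libraries RRP9, a protein of the U3 particle that processes ribosomal RNA, stood at 0.677 to 1.73 CPM, and in the remaining 16 at 29.1 to 36.2 CPM. The low libraries were DMSO C, all 3 PRT220 libraries, PRT220 with GSK-LSD1 C, MS023 A and C, and MS023 with GSK-LSD1 B. Results are therefore also given with a term for these libraries and within each kind. Between the 8 and the 16, with treatment in the model, 6 members were called higher (RPL5, RPLP0, RPS10, RPS19, RPS21 and RPSA) and 0 lower, against 0.98% and 3.2% of all genes, with a median log2 difference of 0.10 over the members.

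Windows around the RefSeq transcription start are shown for members with large changes and for 2 members in which no tract begins within 5 bases of the start, RPL27 and RPL9, because the tract is the shared feature of these messages. They are 30 bases of GRCh38.p14, 5′ to 3′ on the gene's strand, with a tract that begins within 5 bases of the start in capitals. The RPL27 and RPL9 windows each end in a pyrimidine run that begins further away and reaches the window's edge. The run of RPL19 begins further upstream and ends before the start base, and its capitals mark only the part within 5 bases.
RPS27: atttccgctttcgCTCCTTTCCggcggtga
RPL12: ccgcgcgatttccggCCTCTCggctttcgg
RPL28: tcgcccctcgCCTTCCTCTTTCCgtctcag
RPL36A: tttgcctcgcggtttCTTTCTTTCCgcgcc
RPL19: tgggctctccCCTTCgcagataatgggagg
RPL22: tagttcgctcaCCTCCCTTTCTaactccgc
RPL27: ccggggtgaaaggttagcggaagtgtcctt
RPL9: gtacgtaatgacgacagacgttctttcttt
The windows lie at chr1:153990747-153990776 (RPS27, plus strand), chr9:127451392-127451421 (RPL12, minus), chr19:55385917-55385946 (RPL28, plus), chrX:101390996-101391025 (RPL36A, plus) and chr17:39200268-39200297 (RPL19, plus). Those of RPL22, RPL27 and RPL9 lie at chr1:6199581-6199610 (minus), chr17:42998404-42998433 (plus) and chr4:39458908-39458937 (minus).

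Such a tract, C followed by at least 4 C or T on the sense strand, was present in 52 of the 61 members with a RefSeq promoter entry. That is 85.2%, against 25.2% of all 27305 symbols with an entry. A match counted here can be the end of a run that begins further upstream, as in RPL19. Over 250 bases before and 50 after the start, CGGAAG, the core bound by GABP, occurred on either strand in 65.6% of members and 22.6% of all symbols. AAGATGGC, the core bound by YY1, occurred in 9.84% and 3.52%, and the E-box CACGTG in 6.56% and 8.77%. These are matches of letters, not measured binding.

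Mean levels over the 24 libraries, without TMM scaling, were highest for RPL13A at 2808 CPM, RPL3 at 2258 CPM and RPLP0 at 1881 CPM. The lowest were RPS9 at 31.2 CPM, RPL27 at 39.6 CPM, RPS27 at 40.3 CPM and RPL9 at 46.4 CPM. Per 1000 bases of transcript, levels (counts relative to the library total) ran from 32.9 for RPS9 and 45.6 for RPL9 to 2090 for RPS3 and 2402 for RPL13A. RPS27 has no such value, because the transcripts that could be paired with it held 12.2% of its counts. So the messages of proteins needed in equal amounts differed widely in estimated level. Reads of near-identical copies can bear on this: counts assigned to pseudogenes amounted to 258% of those of RPL21, 44.1% of RPL36A and 10.4% of RPS2, whose values are uncertain. Member CPM values from here on are TMM-scaled. RPS9 had 15.2, 40.6 and 9.41 CPM in the 3 DMSO libraries and up to 79.0 CPM elsewhere. Its log2 fold changes against DMSO carried standard errors near 0.69.

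Together the 76 genes took 4.20%, 4.49% and 4.86% of all counts in the DMSO libraries A, B and C. With MS023 and GSK-LSD1 combined the share was 5.19%, 5.49% and 5.19%, so every combined library lay above every DMSO library. The difference was 0.775 percentage points (5.29 ± 0.172% against 4.52 ± 0.331%, mean ± SD, n = 3 each), with p = 0.1 in a two-sided exact permutation test, the smallest that 3 against 3 allows, and 0.467 after adjustment over 7 comparisons. MS023 alone gave 5.03 ± 0.196%, with 2 of 3 libraries above every DMSO library (exact permutation p = 0.2). PRT220 with GSK-LSD1 gave 4.77 ± 0.235% (exact permutation p = 0.2), and the other groups had means between 4.46% and 4.66%, within the range of DMSO. In bulk RNA, fewer cells of a type and less RNA per cell cannot be told apart.

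**Figure D1:**
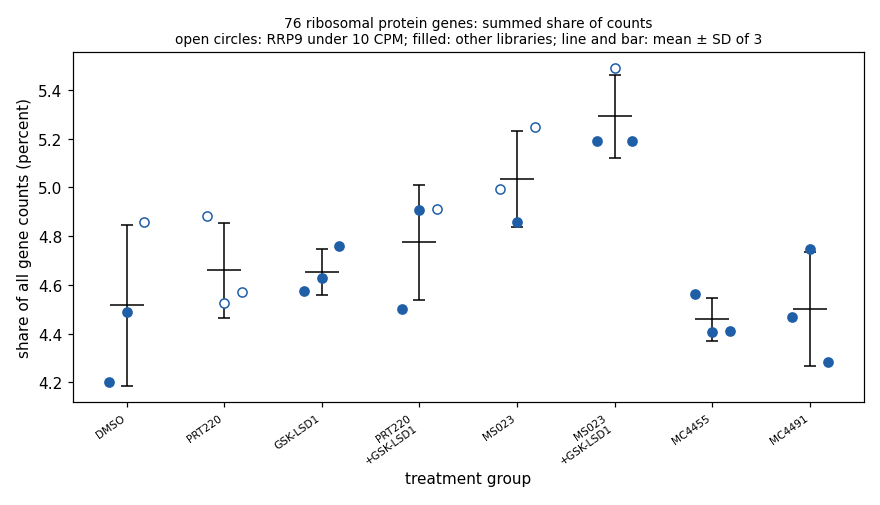
Summed share of gene counts (percent) held by the 76 ribosomal protein genes in each library, by treatment group, with mean and SD of 3. The 3 MS023 with GSK-LSD1 libraries lie between 5.19% and 5.49%, above the highest DMSO library at 4.86%, which is itself an open circle (RRP9 under 10 CPM).

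MS023 with GSK-LSD1 raised most ribosomal protein messages, each by a small amount. Of 76 members 59 were higher than in DMSO and 0 lower, where 25.1% of all tested genes were called higher and 23.3% lower (edgeR's quasi-likelihood test, Benjamini-Hochberg adjusted p below 0.05, the threshold for a call throughout). DESeq2 called 60 higher and 0 lower. In edgeR 63 of the 76 members had an unadjusted p below 0.05, as did 9068 of all 16640 tested genes. The called changes ran from 1.09-fold to 1.73-fold with a median of 1.21-fold. The median log2 fold change was 0.26 over all members and 0.03 over all genes. In 55 members every combined library lay above every DMSO library, a pattern found in 27.1% of all genes. Both subunits took part, with 22 of 31 small subunit and 37 of 45 large subunit members called.

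RPS27, a zinc-binding protein of the small subunit, had 38.3, 32.7 and 29.3 CPM in DMSO A, B and C and 59.4, 51.6 and 62.2 CPM in the combination. The groups did not overlap, and the log2 fold change was 0.79 ± 0.11 (SE, adjusted p = 7.54e-06), the largest among called members. With MS023 alone it had 45.0, 48.8 and 34.9 CPM and with GSK-LSD1 alone 37.9, 37.4 and 40.3 CPM, both overlapping DMSO. RPL12, at the base of the stalk that recruits translation factors, had 319, 335 and 290 CPM in DMSO and 489, 470 and 486 CPM in the combination. Its groups were also apart, with a log2 fold change of 0.61 ± 0.083 (adjusted p = 4.27e-06).

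RPL27, a large subunit protein, was nearly constant in DMSO at 34.7, 35.1 and 35.3 CPM and reached 52.7, 52.6 and 50.3 CPM, a log2 fold change of 0.57 ± 0.061 (adjusted p = 1.98e-07). RPL28 had 429, 477 and 528 CPM in DMSO and 744, 740 and 648 CPM in the combination, a log2 fold change of 0.57 ± 0.092. RPL37, a zinc-binding large subunit protein, had 154, 155 and 159 CPM in DMSO and 220, 228 and 223 CPM in the combination, 0.52 ± 0.047 on the log2 scale (adjusted p = 1.56e-08). None of these 3 overlapped DMSO. RPL36A (0.51), RPL19 (0.46), RPL37A (0.45) and RPS24 (0.44) were among the next by log2 fold change, with RPL36A uncertain because of its pseudogenes.

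Among members with further roles, RPL11 (log2 fold change 0.42) and RPL23 (0.32) were higher in the combination, while RPL5, the partner of RPL11 in binding MDM2, had 0.11 with adjusted p = 0.11. RPS6, the substrate of S6 kinase, had 844, 901 and 992 CPM in DMSO and 1195, 1243 and 1137 CPM in the combination, a log2 fold change of 0.39. RPL22, a large subunit protein that is lost in some T-cell leukaemias, rose by 0.41, RPL41, the shortest member protein, by 0.41 and RPS14, lost in the 5q- syndrome, by 0.32. RPL3, of the peptidyl transferase centre, rose by 0.25, RPS27A, made as a fusion with ubiquitin, by 0.27 and RPS2, a methylated protein, by 0.23. Of the 18 Diamond-Blackfan anaemia genes examined 14 were higher, a share near that of all members (59 of 76).

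Of the stalk proteins that contact elongation factors, RPLP1 was called (log2 fold change 0.21, adjusted p = 0.041), whereas RPLP2 (0.20, adjusted p = 0.056) and RPLP0 (0.08, adjusted p = 0.23) were not. RPSA, at 1098, 1124 and 1250 CPM in DMSO and 1122, 1283 and 1139 CPM in the combination, overlapped (0.03, adjusted p = 0.71). RPS3 (0.09), RPS10 (0.16) and RPS19 (0.13), the first gene found in Diamond-Blackfan anaemia, also missed the threshold. RPL9 stood at 49.4, 48.9 and 49.5 CPM in DMSO and 51.9, 46.4 and 49.2 CPM in the combination, with a log2 fold change of -0.00. By start sequence, 39 of 52 members with a tract and 7 of 9 without one were called higher, with median log2 fold changes of 0.27 and 0.18. Of the 15 members without a RefSeq entry 13 were called higher, with a median of 0.26. RPL27 and RPL9, which both lack a tract at that position, were among the largest and the smallest changes.

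The count of 59 became 64 with a term for the low-RRP9 libraries, 57 in the 16 other libraries and 22 within the low-RRP9 libraries, where each group keeps 1 library and the spread comes from the other groups. Of the 59 members, 54 were among the 57. The log2 fold change of RPS27 was 0.79, 0.78 and 0.79 in these fits, that of RPL12 0.62, 0.58 and 0.67 and that of RPL27 0.57, 0.56 and 0.55. Of the 14 called members fixed for naming, all were called in the first 2 of these fits, and 6 were called within the low-RRP9 libraries. RPL3, RPL23, RPL41, RPLP1, RPS2, RPS6, RPS14 and RPS27A were the 8 not called there, with RPLP1 at 0.09 and RPS14 at 0.20.

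**Figure D2:**
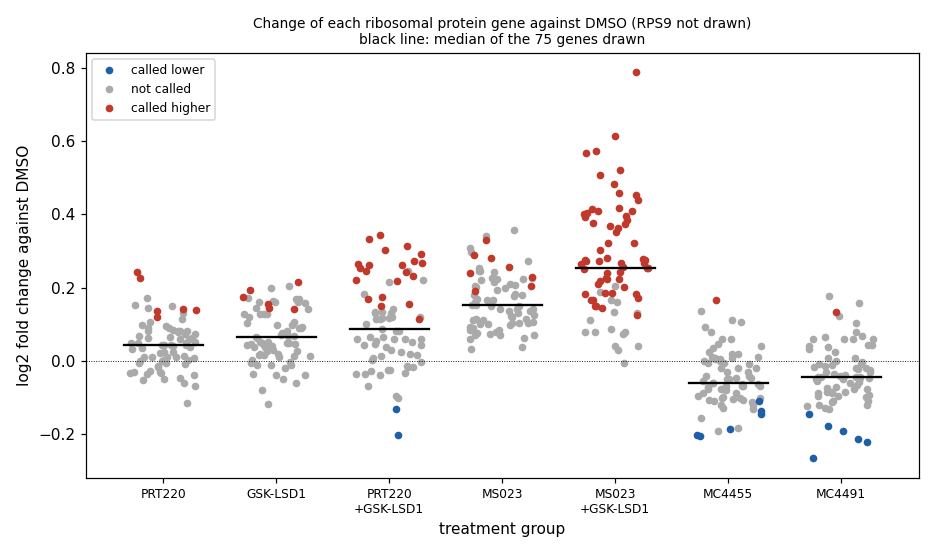
Log2 fold change against DMSO of each member except RPS9, by treatment, coloured by call, with the median as a black line. The cloud for MS023 with GSK-LSD1 lies almost wholly above 0 with 59 called points, MS023 alone lies above 0 with 8, and the clouds for MC4455 and MC4491 are centred just below 0.

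MS023 alone gave positive log2 fold changes in 76 of 76 members, from 0.03 to 0.36 with a median of 0.16, against 0.00 over all genes, but few passed the test. Called higher were 8 and called lower 0, against 0.889% and 1.36% of all genes. An unadjusted p below 0.05 was found in 47 members and in 2510 of all 16640 tested genes. The 8 called were RPL27A (0.33), RPL37A (0.29), RPS12 (0.28), RPL27 (0.26), RPL37 (0.24), RPL22 (0.23), RPS15A (0.20) and RPL26 (0.19). RPL27A had 382, 428 and 444 CPM in DMSO and 517, 531 and 530 CPM with MS023, without overlap (adjusted p = 0.00858). DESeq2 called 20 and library totals without further scaling 16, but 0 were called in the 16 libraries with RRP9 of at least 10 CPM, where MS023 keeps 1 library, and 0 within the low-RRP9 libraries. The median log2 fold changes there were 0.16 and 0.10. Without DMSO A, DMSO B or MS023 A the count was 3, 4 and 3, and with only the MS023 and DMSO libraries in the fit it was 0. With counts scaled for transcript length it was 4, without RPL27, RPL37, RPL37A and RPS15A.

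GSK-LSD1 alone raised 6 members and lowered 0, where 17.6% of all genes were called higher and 15% lower. These were RPL19 (0.22), RPS15A (0.20), RPL27 (0.18), RPL22 (0.15), RPL26 (0.14) and RPL15 (0.14), the last of which was not called with counts scaled for transcript length (0.09). RPL19, at 522, 568 and 575 CPM in DMSO, had 637, 646 and 652 CPM, without overlap (adjusted p = 0.0103). The median over members was 0.07. Of the 76 members 15 had an unadjusted p below 0.05, a smaller share than the 6947 of all 16640 tested genes. DESeq2 called 5 members higher and 1 lower. The count was 19 with the term for low RRP9 and 12 without those libraries, but 3 without DMSO A, 3 without GSK-LSD1 B and 2 without GSK-LSD1 C.

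PRT220 alone raised 6 members and lowered 0, against 13.8% and 11.1% of all genes. RPL37 led with 188, 176 and 190 CPM against 154, 155 and 159 CPM in DMSO, a log2 fold change of 0.24 ± 0.047 (adjusted p = 0.000527) with no overlap. That call rests on the count measure. RPL37-201, annotated with 7686 bases, held 72.4 ± 1.64% of RPL37 counts in DMSO and 77.0 ± 3.44% with PRT220, and per 1000 bases RPL37 stood at 95.4 ± 6.18 and 97.9 ± 13.6 (mean ± SD, n = 3). With counts scaled in each library to the gene's mean transcript length, its log2 fold change was 0.03 (edgeR adjusted p = 0.86). Among the others called, RPL22, RPL30 and RPL26 each had 0.14 and RPL15 0.12, and RPL15 was not called after the same scaling (0.06). The members' median was 0.04. Of the 76 members 11 had an unadjusted p below 0.05, a smaller share than the 5949 of all 16640 tested genes. DESeq2 called 7 members higher and 0 lower. Every PRT220 library was low in RRP9: with a term for this the count was 1, and within the low-RRP9 libraries, where DMSO keeps only C, it was 0. It was 3 without DMSO A and 2 when PRT220 A, B or C was left out.

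PRT220 with GSK-LSD1 raised 21 of 76 members, a share near the 24.4% of all genes called higher. It lowered 2, against 22.1% of all genes. The median log2 fold change over the members was 0.09. Among the largest was RPL27 (0.33), at 34.7, 35.1 and 35.3 CPM in DMSO and 40.0, 45.1 and 47.3 CPM in the combination, without overlap. RPL28 (0.32) overlapped DMSO, at 484 CPM in combined library A and 647 and 652 CPM in B and C, and RPL37 (0.30) did not, but scaled for transcript length it had -0.07 (edgeR adjusted p = 0.59). RPL9 was lower, at 41.8, 43.6 and 43.2 CPM against 48.9 to 49.5 CPM in DMSO (-0.20 ± 0.049, adjusted p = 0.00212). The 23 calls became 14 with counts scaled for transcript length, 27 with the low-RRP9 term, 18 in the 16 other libraries and 6 in the low-RRP9 libraries. They were 15 without DMSO A, 12 without combined library B and 14 without C.

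**Figure D3:**
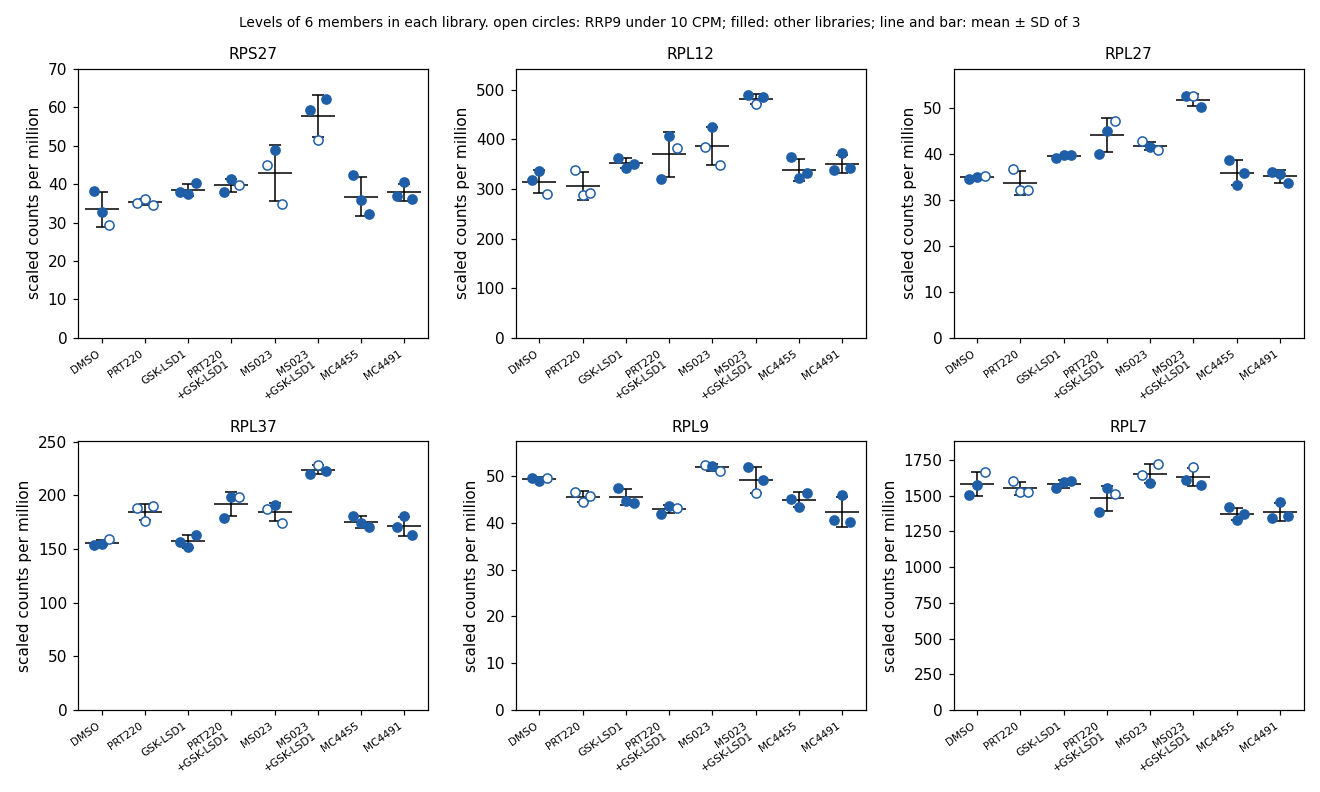
Scaled CPM of 6 members in each library, from 0, by treatment group. RPS27, RPL12, RPL27 and RPL37 are highest with MS023 and GSK-LSD1 combined, whereas the lowest mean is that of MC4491 for RPL9 and that of MC4455 for RPL7.

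MC4455 and MC4491 gave a slightly negative median, -0.06 and -0.04 on the log2 scale, and few calls. Each raised 1 member, RPL37 (0.17 and 0.14), and lowered 6, where 18.5% and 19.2% of all genes were called higher and lower with MC4455 and 15.5% and 15.2% with MC4491. Among those lower in both were RPL7 (-0.20 and -0.19), RPL6 (-0.20 and -0.18) and RPL9 (-0.14 and -0.22). Called lower with 1 of them were RPL17 (-0.14) and RPL34 (-0.11) with MC4455, and RPS23 (-0.27) and RPL38 (-0.14) with MC4491. These comparisons share the DMSO libraries. With counts scaled for transcript length RPL37 had -0.05 and -0.09 and was called in neither, so that 0 members were higher, and RPL17 and RPL34 were not called.

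RPL7, a large subunit protein, had 1503, 1578 and 1668 CPM in DMSO, 1418, 1333 and 1370 CPM with MC4455 and 1344, 1457 and 1361 CPM with MC4491. RPS23, a protein of the decoding centre, had 476, 478 and 529 CPM in DMSO and 396, 457 and 380 CPM with MC4491. Neither overlapped DMSO. All MC4455 and MC4491 libraries had RRP9 of at least 10 CPM, and without DMSO C, the low-RRP9 control, the medians were -0.01 and 0.00 and the counts 2 and 3 in a fit of the 16 libraries. In the 24-library fit the MC4455 count was 4 without DMSO C and 3 without MC4455 B, and the MC4491 count was 4 without MC4491 A.

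Adding GSK-LSD1 to MS023 raised 15 members and lowered 0, against 20% of all genes each way, with RPS27 (0.43), RPL12 (0.32), RPL27 (0.31) and RPL37 (0.28) the largest. In the 16 libraries with RRP9 of at least 10 CPM 4 were called, in the other 8 libraries 6, and with the term 28. Adding MS023 to GSK-LSD1 raised 34 and lowered 0, against 3.37% and 7.5% of all genes, led by RPS27 (0.58), RPL37 (0.51), RPL36A (0.47) and RPL11 (0.46). GSK-LSD1 libraries all had RRP9 of at least 10 CPM, and 27 were called without the low-RRP9 libraries, all of them among the 34. DESeq2 called 16 and 41 higher and 0 lower in these comparisons. An unadjusted p below 0.05 was found in 24 and 45 members, and in 7960 and 4407 of all 16640 tested genes.

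Adding GSK-LSD1 to PRT220 raised 9 members and lowered 0, against 19.4% and 18.8% of all genes. RPL27 led with 36.8, 32.3 and 32.3 CPM under PRT220 and 40.0 to 47.3 CPM in the combination (0.39, adjusted p = 4e-05). The count was 18 with the low-RRP9 term and 17 without combined library A. It was 2 without PRT220 B or combined library B, and 3 without PRT220 C or combined library C. Adding PRT220 to GSK-LSD1 raised RPL37 (0.29, adjusted p = 0.000231) and lowered 0, against 7.01% and 8.34% of all genes, and scaled for transcript length RPL37 was not called (0.13, edgeR adjusted p = 0.44). DESeq2 called 9 and 4 higher and 0 lower in these 2 comparisons. In each, 12 members had an unadjusted p below 0.05, against 7789 and 4625 of all 16640 tested genes. Without combined library A the count of calls for adding PRT220 was 12.

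Whether a combination differed from the sum of its agents was tested by an interaction term. No member was called, 0 of 76 for PRT220 by GSK-LSD1 and 0 of 76 for MS023 by GSK-LSD1, where 0.541% and 0% of all genes were. With edgeR 3 and 4 members had an unadjusted p below 0.05, against 1673 and 1356 of all 16640 tested genes. DESeq2 called 0 and 1 members. RPS15A had the lowest value for PRT220 (-0.24 ± 0.070, adjusted p = 0.161) and RPL11 the highest for MS023 (0.29 ± 0.11, adjusted p = 0.565).

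**Figure D4:**
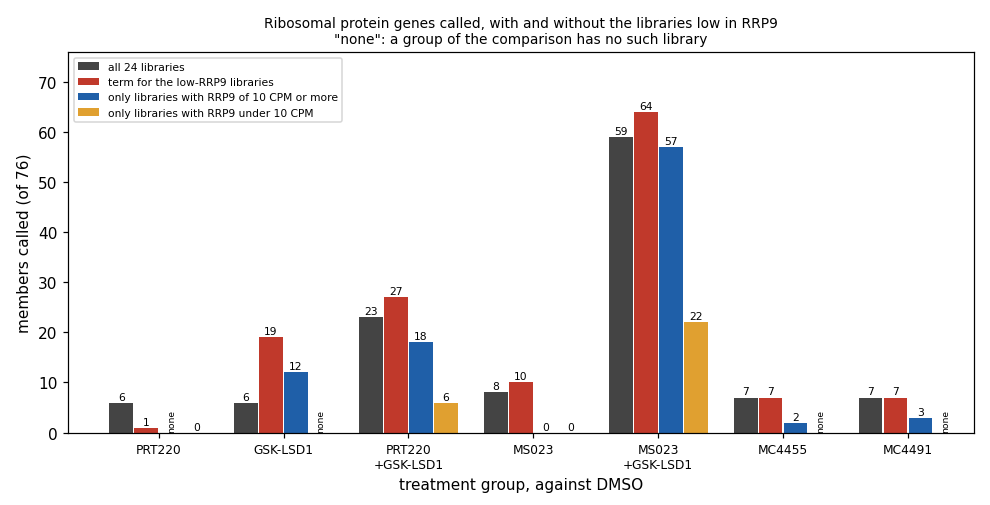
Number of the 76 members called against DMSO in each treatment with all libraries, with a term for low RRP9, and within each kind of library. MS023 with GSK-LSD1 has 57 or more calls in 3 fits and 22 in the low-RRP9 libraries, whereas the 8 calls of MS023 alone become 10, 0 and 0.

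RPL37 was called higher in 6 of the 7 comparisons with DMSO, all but GSK-LSD1, and RPL22 and RPL26 in 5. With counts scaled for transcript length RPL37 was called in 1 of the 7, MS023 with GSK-LSD1 (0.40, edgeR adjusted p = 0.00136), RPL22 in 5 and RPL26 in 4. In the unscaled counts a further 38 members were called higher in 1 comparison and 16 in none. These comparisons share their controls. Across the 24 libraries a member's log2 level followed the mean of the other members with a median Pearson r of 0.87, above 0.7 in 67 members, from 0.06 for RPS9 and 0.44 for RPL9 to 0.98 for RPL3. Among 10498 other genes of at least 5 CPM, the 5 most like the member mean included RPS4Y1 (r = 0.97), EEF1G (0.95), EEF1A1 (0.95) and FAU (0.94). Libraries share depth and scaling, so these values are descriptive.

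Genes around the family were read in the same fit of MS023 with GSK-LSD1 against DMSO. In it, 25.1% of all genes were called higher and 23.3% lower. Of the ribosomal proteins under other symbols, RACK1 was higher by 0.31 and FAU by 0.20 on the log2 scale. Of 21 other messages with a known tract 13 were higher and 0 lower, NAP1L1 (0.33), TPT1 (0.32) and NACA (0.26) most, with a median of 0.18. The 77 mitochondrial ribosomal protein genes tested, which build the separate ribosome of that organelle, had 6 higher and 35 lower with a median of -0.14. Of 7 like-genes 2 were lower, RPS27L (-0.29) and RPL7L1 (-0.17), and 0 higher. Of 16 genes of the mTOR pathway and its regulators 2 were higher, DDIT4 (0.62) and TSC2 (0.21), both of which restrain mTOR, and 5 lower. EIF4EBP1 (-0.47), a target of mTOR that blocks translation, SESN2 (-0.52), a stress-induced inhibitor, and MYC (-0.31) were among the 5. LARP1 did not pass (-0.10, adjusted p = 0.16).

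Transcript usage changed in some members whose total was not called, RPLP0 and RPL10 with PRT220 among them. It was tested as the share of each transcript within its gene, on transcripts of GENCODE 29, with limma's diffSplice. PRT220 changed usage in 11 of 76 members, where 16.2% of all tested genes changed, and PRT220 with GSK-LSD1 in 29 (19.6%). RPS27 is among both, although its tested transcripts held 12.2% of its counts. Counts were 9 with GSK-LSD1 (5.29%), 5 with MS023 (4.45%), 28 with MS023 and GSK-LSD1 (13.5%), 11 with MC4455 (14.9%) and 12 with MC4491 (12.4%). Percents in brackets are those of all tested genes. The members called with PRT220 and with MC4455 are shares of the 76 near those of all genes. Leaving out 1 library brought PRT220 to 7 without C, PRT220 with GSK-LSD1 to 17 without C, MS023 to 1 without B and MC4491 to 7 without C. GSK-LSD1 fell to 3 without DMSO A, 4 without A, 3 without B and 5 without C. MC4455 fell to 7 without DMSO C, 6 without A, 7 without B and 5 without C. The 28 with MS023 and GSK-LSD1 became 19 to 26 with 1 library left out.

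RPLP0, the core of the stalk, carried the strongest change. Its coding transcript RPLP0-202 (912 bases, 12:120196702-120201107, minus strand, GRCh38) lacks exon 6 of the main coding transcript RPLP0-203, 186 bases at 12:120198554-120198739. RPLP0-202 held 4.70%, 4.78% and 4.29% of RPLP0 counts in DMSO and 9.30%, 9.58% and 11.2% with PRT220. With PRT220 and GSK-LSD1 it held 9.85%, 9.59% and 9.73%, and with MC4455 8.64%, 8.57% and 8.77%. Every one of these libraries lay above DMSO. MC4491 gave 8.00 ± 0.0658%, MS023 7.39 ± 0.397% and MS023 with GSK-LSD1 7.62 ± 0.0777%, whereas GSK-LSD1 alone gave 5.06 ± 0.186% (mean ± SD, n = 3), with 5.27%, 4.91% and 4.99% just above DMSO. Relative to the other transcripts of RPLP0 it rose by 1.19 with PRT220 on the log2 scale (limma adjusted p = 8.06e-21) and by 0.16 with GSK-LSD1 (adjusted p = 0.912). With a term for low RRP9 the adjusted p of RPLP0 usage was 6.69e-23 for PRT220. The log2 fold change of total RPLP0 under PRT220 was 0.07 (edgeR adjusted p = 0.42).

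RPL10, a protein added late in large subunit assembly and mutated in some T-cell leukaemias, showed a retained-intron transcript that rose with PRT220. RPL10-216 (1369 bases, X:154398377-154400913, plus strand) keeps introns 1 and 5 of the main coding transcript RPL10-207. The ends of both introns are shown because retention is what this transcript reports, with the first or last 8 bases in capitals, from GENCODE 29 transcripts on GRCh38.
RPL10 intron 1, first 20 bases: GTAAGCGCagttgtcgtctc
RPL10 intron 1, last 20 bases: ctctctctttttCGTTGCAG
RPL10 intron 5, first 20 bases: GTGAGCTTggtctgggcctt
RPL10 intron 5, last 20 bases: cttgcactacccCAATGTAG
Intron 1 has 98 bases (X:154398399-154398496) and intron 5 has 522 (X:154399942-154400463), and both begin GT and end AG. The table does not tell which of the introns gave the reads.

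RPL10-216 held 3.88%, 3.54% and 3.68% of RPL10 counts in DMSO and 9.18%, 9.64% and 10.3% with PRT220. With PRT220 and GSK-LSD1 it held 8.43%, 8.82% and 8.26%, again apart from DMSO. MC4455 gave 5.94 ± 0.191% and MC4491 5.55 ± 0.396%, while MS023 gave 3.53 ± 0.181%, MS023 with GSK-LSD1 3.53 ± 0.112% and GSK-LSD1 3.33 ± 0.394%. Relative to the other RPL10 transcripts the log2 change was 1.48 with PRT220 (limma adjusted p = 5.68e-15), 0.71 with MC4455 (adjusted p = 0.00382) and -0.07 with MS023 (adjusted p = 1). DMSO C and MS023 A and C, which are low in RRP9 like the PRT220 libraries, had 3.68%, 3.68% and 3.33%.

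**Figure D5:**
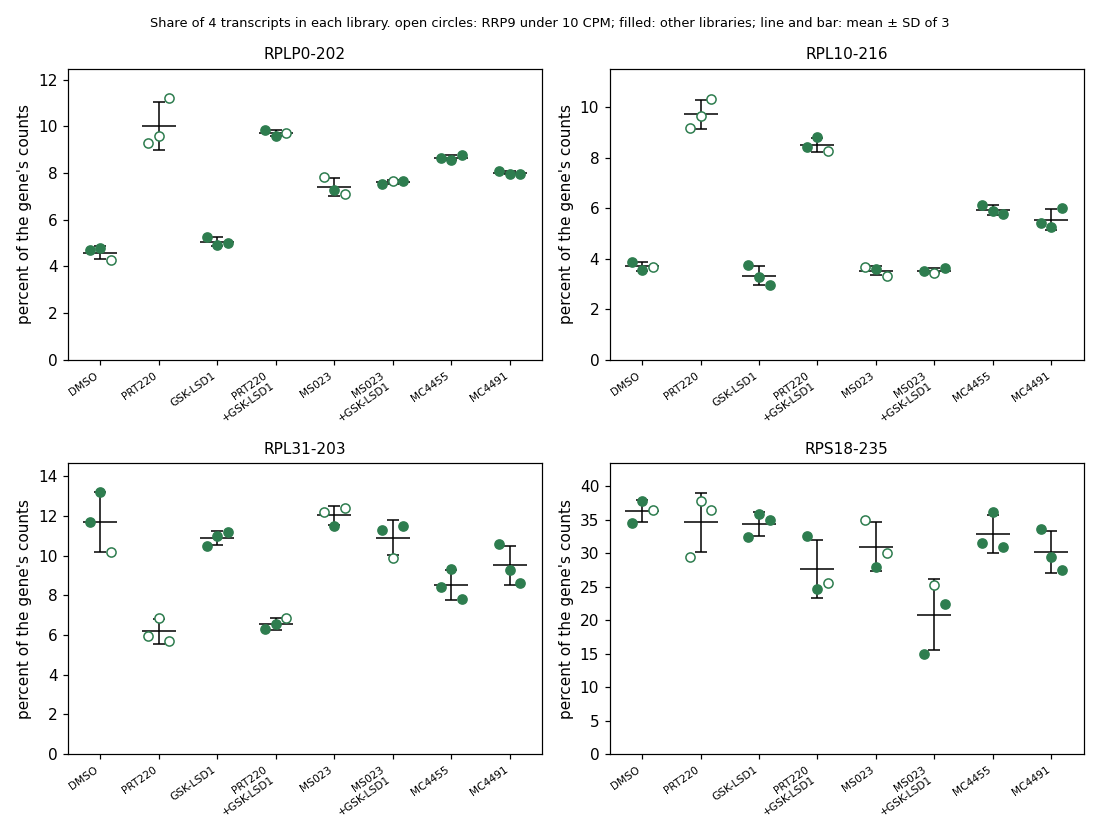
Percent of its gene's counts on each of 4 transcripts in every library, from 0, by treatment. RPLP0-202 is near DMSO with GSK-LSD1, at 5.06%, and higher in the other treated groups, RPL10-216 is highest with PRT220 at 9.18% to 10.3%, RPL31-203 is lowest there, and RPS18-235 is lowest with MS023 and GSK-LSD1.

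RPL31, near the exit of the peptide tunnel, had less of RPL31-203, a coding transcript of 1110 bases without the 70-base exon 4 of RPL31-208. RPL31-203 lacks this last exon and ends further downstream. It held 11.7%, 13.2% and 10.2% of RPL31 counts in DMSO and 5.95%, 6.88% and 5.71% with PRT220, a log2 change of -1.01 relative to the other transcripts (limma adjusted p = 7.35e-10). PRT220 with GSK-LSD1 gave 6.56 ± 0.280% and MC4455 8.53 ± 0.756%, whereas MS023 gave 12.1 ± 0.454%.

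With MS023 and GSK-LSD1 the strongest change was in RPS18, of the small subunit head. RPS18-235 (413 bases, 6:33275866-33276510, plus strand) keeps intron 3 of RPS18-230, 81 bases at 6:33275884-33275964, and fell from 34.5%, 37.8% and 36.5% of RPS18 counts in DMSO to 14.9%, 25.2% and 22.4%.
RPS18 intron 3, first 20 bases: GTGAGGACaaggaagggggc
RPS18 intron 3, last 20 bases: gaccttggtctgCCTGCCAG
The groups did not overlap (log2 change -1.10, limma adjusted p = 1.03e-09), and total RPS18 was 0.38 higher. RPS18-235 also lay below every DMSO library with PRT220 and GSK-LSD1 (32.6%, 24.7% and 25.5%) and with MC4491 (33.6%, 29.5% and 27.5%). The remaining groups overlapped DMSO. RPS29-202 lacks exon 3, the last, of RPS29-201 and ends further downstream. It rose from 16.0 ± 0.367% to 25.1 ± 2.07% of RPS29 counts with MS023 and GSK-LSD1. GSK-LSD1 alone gave 21.2%, 20.3% and 18.7%, above every DMSO library. So did MS023, PRT220 and PRT220 with GSK-LSD1, whereas MC4455 and MC4491 overlapped DMSO. RPL11-205, annotated as a retained intron, held 19.4%, 22.8% and 40.6% of RPL11 counts in DMSO, a wide spread. With MS023 and GSK-LSD1 it held 14.6%, 14.0% and 13.3%. With PRT220 and GSK-LSD1 it held 14.3%, 8.84% and 10.4% (log2 change -1.54, limma adjusted p = 1.76e-08). MC4455 also lay below every DMSO library, and the remaining groups overlapped DMSO. Over all members, transcripts annotated as retained introns held between 7.56% and 8.88% of member counts in every library.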

How the data were processed

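The submitters' processing notes list STAR 2.7.3a, DESeq2 1.28.1, Salmon 1.2.1, R 4.0.0 and GRCh38, with no role or order. The authors deposited a gene and a transcript table whose values are estimated counts, read from values that are not whole, from unstranded poly(A) libraries per the labels' protocols. Reads from a gene and its antisense partner cannot be told apart. The annotation release was not given in the sources used here, and 1 further symbol of the name table that matches the rule is not analysed here. Counts were rounded and fitted with edgeR 4.0.16 in R 4.3.3, with TMM scaling, filterByExpr and 1 coefficient per group over 24 libraries. Adjusted p means Benjamini-Hochberg over all 16640 genes, and CPM means TMM-scaled counts relative to the library total unless stated. Shares of counts, marker and RRP9 levels and the mean member levels used unscaled totals. Usage was tested with limma 3.58.1 (voom, diffSplice, Simes) on 78499 transcripts of 11427 genes, paired with genes through GENCODE 29, which may not be the authors' release, and covering at least 96.64% of counts. DESeq2 1.42.0 was an alternative. Another, added after seeing the data, scaled each gene's counts to its mean annotated transcript length, where paired transcripts held at least 90% of them. Scripts were tested on simulated data. The members, gene lists and tests were chosen with earlier results of these data known. Named genes were 17 fixed members, up to 4 called members per direction and comparison, up to 3 per list, up to 3 for usage and the 5 genes most alike. Members named beyond that rule in a comparison, such as RPL36A, RPL37A, RPS24, RPS15A, RPL26, RPL15, RPL34 or RPL38, were added after their values were seen. Some genes that the rule would name are not reported here.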

Additional observations from a re-analysis of the deposited data

How the results depend on the processing

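Letters A, B and C gave no pairing: residual correlations of libraries with the same letter had a median of 0.006, against -0.003 for other letters. The replicate block gave 57 calls for MS023 with GSK-LSD1 and, for usage with MS023, 3 in place of 5. Calls for MS023 against DMSO were 16 without scaling, 20 with DESeq2, 0 with only its own groups and 0 within either kind of RRP9 library. PRT220 gave 3 without the filter, 3 with pseudogene counts added, 2 with its own groups, 1 with the low-RRP9 term and 0 within low-RRP9 libraries. GSK-LSD1 gave 3 without the filter, 19 with the term and 12 at RRP9 of at least 10 CPM. PRT220 with GSK-LSD1 gave 14 with its own groups and 6 within low-RRP9 libraries. For MS023 with GSK-LSD1 the latter gave 22. MC4455 and MC4491 gave 2 and 3 at RRP9 of at least 10 CPM. Against PRT220 the combination gave 18 with the term. Against GSK-LSD1 it gave 8 without scaling, 4 with DESeq2 and 2 with its own groups. Against MS023, its combination gave 28 with the term, 4 at RRP9 of at least 10 CPM and 6 below. The MS023 interaction gave 1 with DESeq2. Usage calls with an F test were 7 (PRT220), 4 (GSK-LSD1) and 2 (MS023), and 3 for MS023 with transcripts of at least 10 CPM. Leaving out 1 library at a time gave 2 to 7 calls for PRT220, 2 to 8 for GSK-LSD1, 12 to 34 for PRT220 with GSK-LSD1, 3 to 12 for MS023, 41 to 64 for MS023 with GSK-LSD1, 3 to 8 for MC4455, 4 to 8 for MC4491, 2 to 17 for the PRT220 combination against PRT220 and 1 to 12 against GSK-LSD1. Usage ranged from 7 to 13 (PRT220), 3 to 7 (GSK-LSD1) and 17 to 27 (PRT220 with GSK-LSD1). It ranged from 1 to 5 (MS023), 19 to 26 (MS023 with GSK-LSD1), 5 to 10 (MC4455) and 7 to 12 (MC4491). With counts scaled for transcript length, chosen after seeing the data, MS023 had 4 calls, PRT220 with GSK-LSD1 14 against DMSO and 0 against GSK-LSD1, and RPL37 reversed with PRT220 and GSK-LSD1 (-0.067), MC4455 (-0.053) and MC4491 (-0.094), while MS023 with GSK-LSD1 had 52 calls, all among the 59. The share of counts reversed for PRT220 within low-RRP9 libraries (-0.201 percentage points), and for MC4455 and MC4491 at RRP9 of at least 10 CPM (0.115 and 0.155). Leaving out 1 library it ran from -0.0141 to 0.316 (PRT220), -0.0199 to 0.310 (GSK-LSD1), -0.215 to 0.115 (MC4455) and -0.175 to 0.155 (MC4491). Subsets hold fewer libraries, and otherwise the cause was not tested. Of 1105 alternative values for named members, 924 kept call and direction, 178 lost the call and 3 reversed. Precision is limited by 3 libraries per group.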

Other observations

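With MS023 and GSK-LSD1, 24 of 145 tested pseudogenes named after members were called higher and 3 lower, with a median log2 fold change of 0.33. That is 16.6% higher, where 25.1% of all genes and 59 of the 76 members were called higher. With MC4455 they had 17 higher (11.7%, against 18.5% of all genes) and 8 lower with a median of 0.25, where the members' median was -0.06. Reads of a member and of its near copies cannot always be told apart. Adding them to their member left 55 members called with MS023 and GSK-LSD1.

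Short genes other than members also sat above 0 in MS023 with GSK-LSD1. Genes with transcripts up to 750 bases had a median log2 fold change of 0.18 over 824 genes, against 0.28 over the 33 members of that length. Between 750 and 1000 bases the medians were 0.05 over 719 genes and 0.20 over 21 members, and between 1000 and 1500 bases 0.02 over 1590 genes and 0.24 over 14 members. Among the members, length and change had a Spearman rho of -0.03 across 76 genes, which are not independent. Whether length has a part in the members' change was not tested.

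With MC4455 and MC4491, 39 and 32 of 77 mitochondrial ribosomal protein genes were called lower and 0 higher in each, with medians of -0.17 and -0.15. Of all genes, 19.2% and 15.2% were called lower and 18.5% and 15.5% higher. MYC was higher with MS023 alone (0.27, edgeR adjusted p = 0.031) and lower with PRT220 and GSK-LSD1 (-0.55). RPS27L, a p53 target and near copy of RPS27, was higher with PRT220 by 0.29 on the log2 scale (adjusted p = 0.0016 in edgeR), and its log2 fold change with MS023 and GSK-LSD1 together was -0.29 (adjusted p = 0.00057 in edgeR).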
